A study of Homo sapiens with 6 samples.

Results

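The 36 genes described here belong to the oxidative stress defence under the transcription factor NRF2, with the glutathione, thioredoxin and pentose phosphate enzymes that work beside it. They were matched by symbol to a list of the pathway that was drawn up with earlier results of these data known, and all 36 were found among the 57773 rows of the deposited count table and passed the filter on low counts. The counts come from poly(A) RNA of A549, a human lung adenocarcinoma cell line. Of 6 samples, 3 were exposed to recombinant human surfactant protein D (rhSP-D) at 10 µg/ml and 3 to an equal volume of the buffer that protein was eluted in (vehicle), all for 48 h. All samples are of this 1 line, without a genetic change made by the study. The labels do not say whether replicates were grown as separate cultures, and p-values therefore reflect the spread among these libraries alone, which may be technical.

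NRF2, encoded by NFE2L2, is a leucine zipper factor that binds antioxidant response elements as a heterodimer with a small MAF protein. Its sensor KEAP1 normally hands it to a ubiquitin ligase for destruction, and electrophiles or peroxides that modify KEAP1 let NRF2 accumulate. A549 is widely used as a line in which KEAP1 is mutated and NRF2 is active without a stimulus. The targets make and recycle glutathione and thioredoxin, supply the NADPH both need, break down heme and store its iron, and conjugate and export foreign compounds. Surfactant protein D is a collectin that alveolar type II cells secrete.

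Total counts per library ranged from 11396193 to 26030880. Levels are counts per 1000000 (CPM) after scaling by TMM factors, which set the libraries to a common level from the bulk of genes. Changes are rhSP-D over vehicle, on the log2 scale with the SE or as a percentage, and "rose" and "fell" are written for an adjusted p under 0.05 in edgeR's quasi-likelihood test over 15848 genes. Intervals are 95% intervals of single genes, with no adjustment. The epithelial keratins KRT8 and KRT18 were at 5043 and 4125 CPM in vehicle. The other epithelial markers were lower, CDH1 at 149 CPM and KRT19 and EPCAM at only 1.83 and 1.82 CPM. KRT18 rose by 3.45% (adjusted p = 0.0131), and KRT8 did not pass (adjusted p = 0.151). The KRT18 call was lost with library totals alone (adjusted p = 0.732) and with the length and GC correction described below (adjusted p = 0.96). It was also lost without vehicle replicate 1, vehicle replicate 3 or rhSP-D replicate 1. The type II marker SFTPC was at 0.184 CPM in vehicle. SFTPA1, SFTPB and NKX2-1 were near 0 as well, whereas ABCA3 was at 79.9 CPM. Of the leukocyte markers, PTPRC and CD3E were at or near 0 in both groups, and CD68, a lysosomal protein, was at 84.4 CPM with vehicle against 92.4 CPM with rhSP-D and rose. That call was lost with the length and GC correction described below (log2 change 0.054, adjusted p = 0.395, against 0.12), with library totals alone (0.083, adjusted p = 0.114), and when vehicle replicate 1, rhSP-D replicate 1 or rhSP-D replicate 2 was left out (adjusted p = 0.0775, 0.0647 and 0.0821). The endothelial markers VWF and CDH5 and the fibroblast markers DCN, COL3A1 and PDGFRA were at or near 0, with COL1A1 at 11.5 CPM in vehicle.

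Among the 36 genes 16 rose, 3 fell and 17 did not pass the test. In bulk RNA, more cells with a transcript and more of it per cell cannot be told apart. The background was 15.9% of all tested genes changed, with 9.31% higher and 6.63% lower. In 25 of the 36 the groups did not overlap, 18 higher and 7 lower, beside 31.5% of all tested genes, 16.2% higher and 15.4% lower. These were the 19 changed genes and, among those that did not pass, FTL and EPHX1 (higher) and GCLC, GSR, UGDH and ABCC3 (lower). The rises were small: HMOX1 had the largest, 18.5%, MGST1 the smallest, 5.25%, and the median of the 16 was 10.2%. No member moved by more than 1.2-fold with an adjusted p under 0.05. Enzymes that use glutathione or thioredoxin against peroxides, the iron and heme genes HMOX1, BLVRB and FTH1, and both superoxide dismutases rose. By contrast NFE2L2, KEAP1, MAFG and the target gene most used as a readout of NRF2, NQO1, did not pass. The 36 genes together made up 20952 ± 123 CPM with vehicle against 21845 ± 72.2 CPM with rhSP-D (SD, n = 3), and their median log2 change was 0.066, beside -0.006 over all tested genes. With libraries scaled by their totals alone the members split into 13 higher and 8 lower, so that 61.9% of their calls were higher against 84.2% with TMM factors. For all genes the same change of scale took that share from 58.4% to 30.4%, with 17.8% changed, 5.4% higher and 12.4% lower.

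The genes of the module are abundant, and abundant genes passed more often. Of the 36 genes 22 had a vehicle mean of 100 to 1000 CPM, and 15 of these changed (68.2%), 13 higher and 2 lower. Of all 1787 tested genes at that level 50% changed, with 36.1% higher and 13.9% lower. Above 1000 CPM 2 of 5 members rose (TKT and FTH1) and PGD, NQO1 and FTL did not pass, while 70.1% of all 97 genes at that level were higher and 5.15% lower. Of the 8 members at 10 to 100 CPM SOD2 rose and ME1 fell, against 17.7% of all genes at that level changed, 8.74% higher and 8.98% lower. The 1 member under 10 CPM, UGT1A6, did not pass, where 1.1% of all genes were higher and 1.37% lower. The share of changed members is therefore to be read against the share at the same level and not against 15.9%. The share of genes whose groups did not overlap was not computed by level, so the 31.5% given above is not matched for level.

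**Figure D1:**
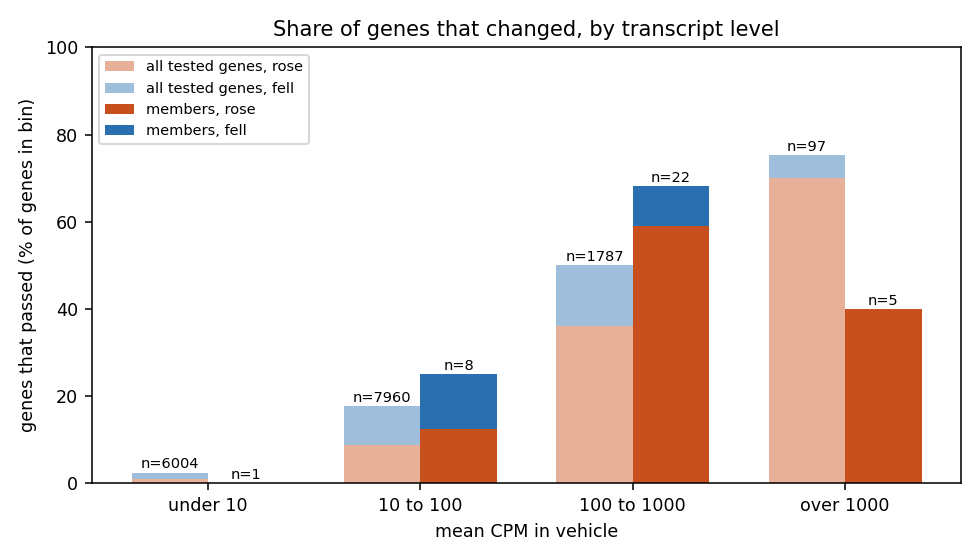
Share of genes that changed (vertical axis, % of the genes in a bin) in 4 bins of mean CPM in vehicle (horizontal axis), for all tested genes (pale) and the 36 members (dark), with rises in orange and falls in blue and the number of genes above each bar. The share rose with the level for all tested genes, from 2.47% under 10 CPM to 75.3% above 1000 CPM, and members at 100 to 1000 CPM stood at 68.2% against 50%.

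Promoter stretches are shown because genes that share the letters of the antioxidant response element were found among those that rose, fell and did not pass. RefSeq promoter windows (GRCh38.p14, 250 bases before to 50 after the start) were found for 27 of the 36 genes, and the core letters TGACNNNGC were searched on both strands. Of these 27 windows 7 held the core (25.9%), against 13.3% of 34943 windows of the same length. Only the first listed window of a member was searched, whereas the 34943 windows were not limited to 1 per gene, so the shares are not strictly alike. No window was found for GSS, GSR, PRDX1, PRDX6, HMOX1, FTH1, ABCC1, ABCC3 and SOD1. Below, 1 match for each of the 7 genes is shown 5′ to 3′ on the gene's strand with the match in capitals. The first pair rose, the next pair fell and the last 3 did not pass.
GSTP1: gccggcgccgTGACTCAGCactggggcgg
GPX2: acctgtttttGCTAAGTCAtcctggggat
ME1: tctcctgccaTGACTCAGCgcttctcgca
TXNRD1: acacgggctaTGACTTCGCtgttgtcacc
GCLM: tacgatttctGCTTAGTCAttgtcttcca
PIR: gccgcgaagcGCTGAGTCAcggtgaggct
PGD: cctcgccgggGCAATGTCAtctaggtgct

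These stretches lie at chr11:67583736-67583764 on the plus strand (GSTP1), chr14:64942849-64942877 on the minus strand (GPX2), chr6:83431170-83431198 on the minus strand (ME1), chr12:104215670-104215698 on the plus strand (TXNRD1), chr1:93909446-93909474 on the minus strand (GCLM), chrX:15493289-15493317 on the minus strand (PIR) and chr1:10398853-10398881 on the plus strand (PGD). Read on the strand that starts with TGAC, GSTP1, ME1 and PIR carried the identical letters TGACTCAGC, which also hold the AP-1 letters TGAGTCA on the opposite strand. That 9-base form was in 0.564% of all windows, and its 3 member genes rose, fell and did not pass, respectively. ME1 and TXNRD1 each held another match of the core. A match is a description of letters, and no match in this window says nothing of elements farther from the start. Among the 20 windows without the core 9 genes rose, 1 fell and 10 did not pass.

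**Figure D2:**
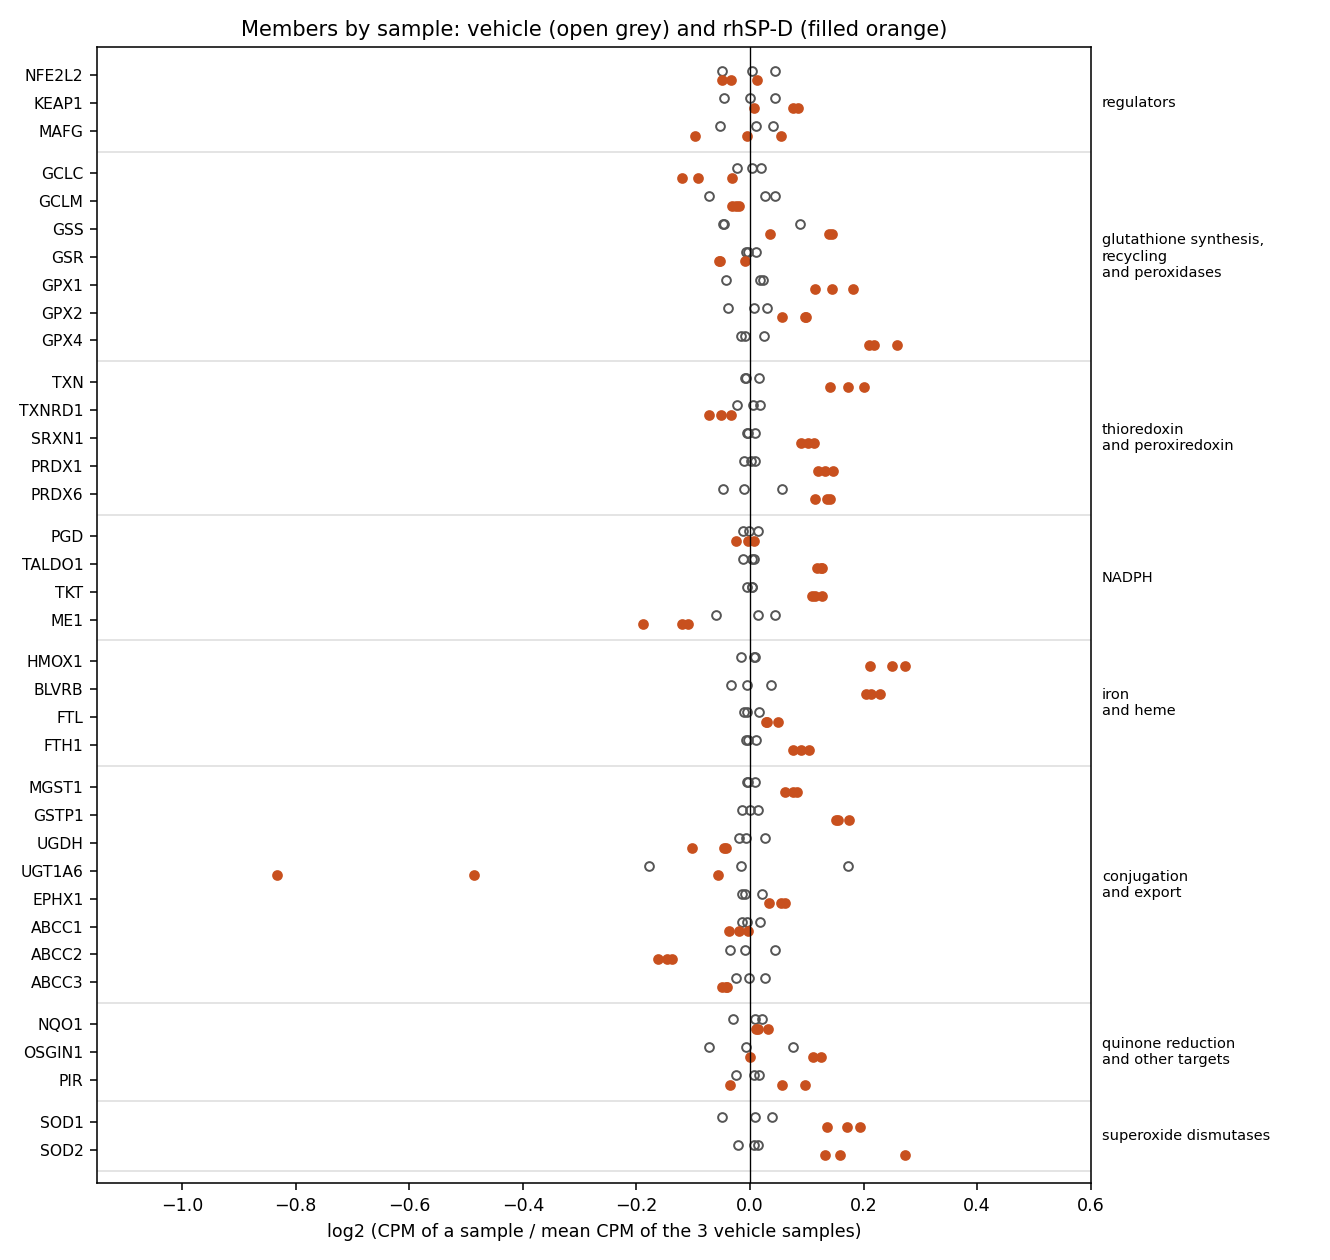
Each of the 36 members in the 6 samples, as the log2 of a sample's CPM over the mean CPM of the 3 vehicle samples (horizontal axis), with vehicle as open grey and rhSP-D as filled orange points and members grouped by branch. The rhSP-D points lie to the right of every vehicle point for 18 genes and to the left for 7, and UGT1A6, at about 5 CPM, is spread most widely.

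The regulators did not pass. NFE2L2 (ENSG00000116044, chromosome 2, 177227595 to 177392697) was at 74.8, 77.6 and 79.8 CPM in the vehicle samples against 74.8, 78.1 and 75.6 CPM after rhSP-D, with overlapping groups. Its log2 change was -0.031 ± 0.037 (SE, adjusted p = 0.643), with a 95% interval of -7.06% to 3.11%. KEAP1 (ENSG00000079999, chromosome 19, 10486120 to 10503741) was at 86.4, 89.1 and 83.7 CPM in the vehicle samples against 91.0, 86.9 and 91.7 CPM after rhSP-D, also overlapping, with an interval of -0.923% to 9.54% (adjusted p = 0.292). MAFG, a small MAF partner of NRF2, had an interval of -5.42% to 4.78% (adjusted p = 0.938). These are RNA levels, and the amount of NRF2 protein, which KEAP1 normally sets by degradation, was not analysed here.

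The 3 genes grouped as quinone reduction and other targets did not pass either. NQO1 (ENSG00000181019, chromosome 16, 69706996 to 69726951), the quinone reductase, was at 1427, 1438 and 1389 CPM in the vehicle samples against 1432, 1429 and 1449 CPM after rhSP-D. The groups overlapped, with an interval of -0.945% to 3.68% (adjusted p = 0.481), which covers the spread among these libraries under TMM scaling only. With library totals alone the log2 change of NQO1 was -0.022 (adjusted p = 0.373). After the length and GC correction described below it was 0.033 (adjusted p = 0.227). OSGIN1, a stress-induced growth inhibitor, and PIR, an iron-binding nuclear protein, were scarcer, at 37.1 and 39.1 CPM in vehicle, with intervals of -1.59% to 14.1% and -4.31% to 10.1%. Of NQO1's exons 17.7% of the bases overlap an opposite-strand gene, CTD-2033A16.1, at 11.4 CPM in vehicle, and without strand in the counting reads there could belong to either gene.

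In the glutathione branch the 3 peroxidases rose and the enzymes that make and recycle glutathione did not pass. The peroxidases were at 100 to 1000 CPM in vehicle, where 36.1% of all tested genes were higher. Of the peroxidases GPX4 alone passed after correction for gene length and GC content. GPX4 (ENSG00000167468, chromosome 19, 1103926 to 1106791), which reduces lipid hydroperoxides in membranes and guards against ferroptosis, was at 133, 136 and 132 CPM in the vehicle samples against 160.1, 155 and 155 CPM after rhSP-D. All rhSP-D samples lay above all vehicle samples, a rise of 17.3% (log2 change 0.23 ± 0.028 SE, adjusted p = 6.17e-07). GPX1 (ENSG00000233276, chromosome 3, 49357171 to 49358600), the cytosolic peroxidase, was at 189.8, 191 and 182 CPM in the vehicle samples against 203, 213 and 207 CPM after rhSP-D and rose by 10.8% (log2 change 0.15 ± 0.026 SE, adjusted p = 1.58e-04). Its groups did not overlap either, but after the length and GC correction described below its log2 change was 0.032 (adjusted p = 0.576). GPX2 (ENSG00000176153, chromosome 14, 64939152 to 64942905), the gastrointestinal form, was at 151, 153 and 146 CPM in the vehicle samples against 156, 161 and 160.5 CPM after rhSP-D and rose by 5.99% (log2 change 0.084 ± 0.028 SE, adjusted p = 0.0365). The groups of GPX2 were apart by less than 3 CPM, and its call was lost without vehicle replicate 1 (log2 change 0.088, adjusted p = 0.0569), vehicle replicate 3 (log2 change 0.063, adjusted p = 0.229), rhSP-D replicate 2 (log2 change 0.075, adjusted p = 0.116) or rhSP-D replicate 3 (log2 change 0.076, adjusted p = 0.12). GPX2 did not pass with DESeq2 (adjusted p = 0.0939) or limma-voom (adjusted p = 0.0541), and its log2 change was 0.006 after the length and GC correction (adjusted p = 0.941).

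Glutamate-cysteine ligase, the first and limiting step of glutathione synthesis, is built from the catalytic subunit GCLC and the modifier GCLM. GCLC was at 83.6 ± 1.22 CPM with vehicle and 79.1 ± 2.47 CPM with rhSP-D (SD, n = 3, adjusted p = 0.137), with all rhSP-D samples below all vehicle samples. GCLM was at 113 ± 4.86 CPM with vehicle and 111 ± 0.431 CPM with rhSP-D (adjusted p = 0.709). The ratio of GCLM to GCLC, each per kilobase of exon, was 2.25, 2.02 and 2.18 in vehicle and 2.15, 2.30 and 2.25 in rhSP-D, with overlapping groups (exact permutation test, 2-sided, p = 0.5). Glutathione synthetase, GSS, which adds glycine in the second step, had an interval of 1.48% to 14.0% (adjusted p = 0.0812), and glutathione reductase, GSR, which restores oxidised glutathione, had one of -5.95% to 0.681% (adjusted p = 0.304). GSS passed with no filter on low counts (log2 change 0.11, adjusted p = 0.0411), without vehicle replicate 2 (log2 change 0.16, adjusted p = 0.0138) or rhSP-D replicate 3 (log2 change 0.14, adjusted p = 0.0332), and GCLC and GSR were lower with library totals alone (log2 changes -0.12 and -0.080, adjusted p = 0.0168 and 0.0185).

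All 5 genes of the thioredoxin branch changed, 4 higher and 1 lower. All were at 100 to 1000 CPM in vehicle, where 50% of all tested genes changed, 36.1% higher and 13.9% lower. After the length and GC correction described below 3 of the 5 were higher and 0 lower. TXN (ENSG00000136810, chromosome 9, 110243811 to 110256640), the small disulphide reductase that gives the system its name, was at 265, 261 and 261 CPM in the vehicle samples against 296, 289 and 302 CPM after rhSP-D, a rise of 12.8% (log2 change 0.17 ± 0.022 SE, adjusted p = 2.01e-06). PRDX1, a peroxiredoxin that thioredoxin recharges, was at 599, 602 and 594 CPM in the vehicle samples against 655, 649.9 and 662 CPM after rhSP-D and rose by 9.67% (adjusted p = 2.84e-06). PRDX6, a peroxiredoxin with a single active cysteine that uses glutathione, was at 175, 183 and 170.3 CPM in the vehicle samples against 193, 191 and 194 CPM after rhSP-D and rose by 9.52% (adjusted p = 9.07e-04). For these 3 genes every rhSP-D sample was above every vehicle sample. SRXN1, sulfiredoxin, repairs overoxidised peroxiredoxins, and was at 219, 222 and 219.6 CPM in the vehicle samples against 238, 234 and 236 CPM after rhSP-D, a rise of 7.29% (adjusted p = 0.00218). Of the exons of PRDX1 24.9% of the bases overlap those of MMACHC on the opposite strand, which was at 4.86 CPM in vehicle.

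TXNRD1 (ENSG00000198431, chromosome 12, 104215779 to 104350305), the selenoenzyme that reduces thioredoxin with NADPH, went the other way, at 803, 781 and 796 CPM in the vehicle samples against 755, 775 and 766 CPM after rhSP-D. Its groups did not overlap, and it fell by 3.52% (log2 change -0.052 ± 0.018 SE, adjusted p = 0.0428). The call was lost without vehicle replicate 1 (log2 change -0.042, adjusted p = 0.172), vehicle replicate 3 (log2 change -0.049, adjusted p = 0.141), rhSP-D replicate 1 (log2 change -0.042, adjusted p = 0.19) or rhSP-D replicate 3 (log2 change -0.054, adjusted p = 0.0731), and also with no filter on low counts (log2 change -0.046, adjusted p = 0.134). Within each library TXN over TXNRD1, per kilobase of exon, was 1.94, 1.96 and 1.92 in vehicle and 2.30, 2.19 and 2.31 in rhSP-D. The groups were apart, and an exact 2-sided permutation test of 3 against 3 gave p = 0.1, the smallest it can give (adjusted p = 0.2 over 4 ratios). A ratio within a library does not depend on the scaling between libraries, but the pair differ in exon length, 1142 nt and 6708 nt. After the correction for length and GC content described below, the log2 changes of TXN and TXNRD1 were 0.14 and 0.018.

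**Figure D3:**
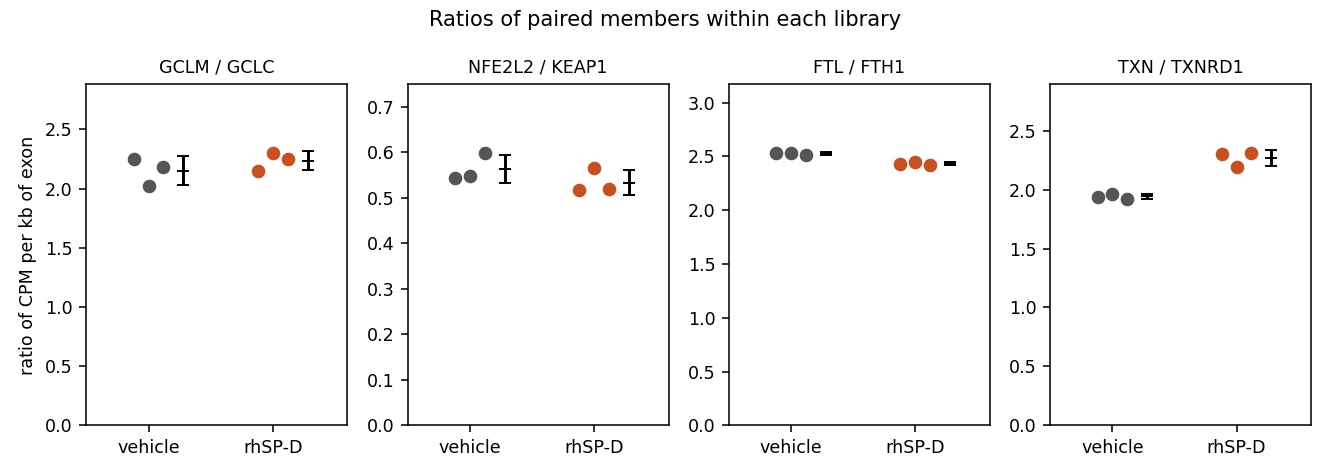
Ratios of 4 pairs of members within each library (vertical axis, ratio of CPM per kilobase of merged exon), for the 3 vehicle (grey) and 3 rhSP-D (orange) samples, with the mean and SD beside the points. TXN over TXNRD1 was higher and FTL over FTH1 lower in every rhSP-D sample, while GCLM over GCLC and NFE2L2 over KEAP1 overlapped.

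Genes that supply NADPH split. TKT and TALDO1 encode the enzymes of the reversible, non-oxidative arm of the pentose phosphate pathway, which exchanges sugar phosphates with glycolysis. TKT was at 1848, 1848 and 1837 CPM in the vehicle samples against 1990.3, 2013 and 1996 CPM after rhSP-D and rose by 8.42% (log2 change 0.12 ± 0.014 SE, adjusted p = 8.66e-07). TALDO1 was at 399, 404 and 405 CPM in the vehicle samples against 437, 439 and 439.7 CPM after rhSP-D and rose by 8.87% (log2 change 0.12 ± 0.019 SE, adjusted p = 3.10e-05). In both, the groups were apart by more than the range of either group. PGD, a dehydrogenase of the oxidative arm that yields NADPH, was at 1346 ± 12.5 CPM with vehicle and 1339 ± 15.1 CPM with rhSP-D (SD, n = 3), with an interval of -2.67% to 1.76% (adjusted p = 0.827). With library totals alone PGD was lower (log2 change -0.048, adjusted p = 0.0256).

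ME1 (ENSG00000065833, chromosome 6, 83210389 to 83431071), malic enzyme, makes NADPH outside the pentose phosphate pathway. It was at 84.7, 80.5 and 86.5 CPM in the vehicle samples against 73.7, 77.8 and 77.2 CPM after rhSP-D, lower in each rhSP-D sample, and fell by 9.30% (log2 change -0.14 ± 0.037 SE, adjusted p = 0.00866). The call was lost without vehicle replicate 3 (log2 change -0.11, adjusted p = 0.0959) or rhSP-D replicate 1 (log2 change -0.11, adjusted p = 0.0809).

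Of the 4 iron and heme genes 3 rose, among them HMOX1 with the largest rise of the 36 genes before the length and GC correction described below. HMOX1 and BLVRB were at 100 to 1000 CPM in vehicle, where 36.1% of all tested genes were higher. FTH1 and FTL were above 1000 CPM, where 70.1% were higher. HMOX1 (ENSG00000100292, chromosome 22, 35380361 to 35394214), heme oxygenase, which opens heme to biliverdin, iron and carbon monoxide, was at 189, 185 and 188 CPM in the vehicle samples against 223, 226 and 217 CPM after rhSP-D. It rose by 18.5% (log2 change 0.24 ± 0.025 SE, adjusted p = 3.12e-08), with the groups far apart. After the length and GC correction the log2 change of HMOX1 was 0.17 (adjusted p = 1.06e-05), below the 0.31 of SOD2. BLVRB (ENSG00000090013, chromosome 19, 40447765 to 40465840), biliverdin reductase B, which also acts as a flavin reductase, was at 264, 272 and 259 CPM in the vehicle samples against 311, 305 and 307 CPM after rhSP-D and rose by 16.1% (log2 change 0.22 ± 0.023 SE, adjusted p = 5.72e-08). Both stayed called under all 18 alternative settings.

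Ferritin, the shell that stores iron, is made of the heavy chain FTH1 and the light chain FTL. FTH1 was at 3909, 3961 and 3920.2 CPM in the vehicle samples against 4226, 4141 and 4184 CPM after rhSP-D, higher in each rhSP-D sample, and rose by 6.46% (log2 change 0.090 ± 0.014 SE, adjusted p = 1.84e-05). FTL was at 4280.1, 4342 and 4263 CPM in the vehicle samples against 4446, 4379 and 4387 CPM after rhSP-D, with the groups also apart, and did not pass (interval 0.589% to 4.53%, adjusted p = 0.0674). FTL over FTH1 per kilobase of exon was 2.53, 2.53 and 2.51 in vehicle and 2.43, 2.44 and 2.42 in rhSP-D, apart in all samples (exact permutation test, 2-sided, p = 0.1, the smallest possible, adjusted p = 0.2). FTL passed as higher without vehicle replicate 2 (log2 change 0.046, adjusted p = 0.0261), with DESeq2 (adjusted p = 0.034) and with limma-voom (adjusted p = 0.00929), but as lower after the length and GC correction (log2 change -0.10, adjusted p = 2.11e-05). Per kilobase it was the most abundant member, at 4892 ± 47.5 CPM per kilobase in vehicle (SD, n = 3) against 1936 ± 13.4 for FTH1. That gap depends on merged exon lengths of 878 nt for FTL and 2030 nt for FTH1. Before division by length their vehicle means were 4295 and 3930 CPM. Reads of ferritin can also map to its many processed pseudogenes, of which 25 named after FTH1 are in the table, with a summed 7.39 CPM in vehicle. Of the exons of FTH1 62.4% of the bases overlap exons of the opposite strand, where BEST1 lies, at 5.37 CPM in vehicle.

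Of the 8 conjugation and export genes 2 rose, 1 fell and 5 did not pass. All but UGT1A6 were at 100 to 1000 CPM in vehicle, where 36.1% of all tested genes were higher and 13.9% lower. GSTP1, a glutathione transferase, was at 873, 882 and 865 CPM in the vehicle samples against 985, 973 and 969.8 CPM after rhSP-D and rose by 11.8% (log2 change 0.16 ± 0.017 SE, adjusted p = 3.88e-08). MGST1, the microsomal transferase, was at 626, 621 and 620.4 CPM in the vehicle samples against 656, 649.5 and 659 CPM after rhSP-D and rose by 5.25% (log2 change 0.074 ± 0.017 SE, adjusted p = 0.00337), a call lost with library totals alone (log2 change 0.033, adjusted p = 0.202). Both had every rhSP-D sample above every vehicle sample. ABCC2 (ENSG00000023839, chromosome 10, 99782640 to 99852594), the apical exporter of glutathione and glucuronide conjugates, was at 267, 253 and 257 CPM in the vehicle samples against 234, 236 and 231 CPM after rhSP-D, apart in the other direction, and fell by 9.61% (log2 change -0.15 ± 0.024 SE, adjusted p = 5.89e-05).

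The other exporters of the group did not pass: ABCC1 had an interval of -4.62% to 1.92% and ABCC3 of -5.42% to -0.665% (adjusted p = 0.627 and 0.0754). UGDH, which makes the UDP-glucuronate that glucuronidation spends, had one of -7.03% to -1.05% (adjusted p = 0.0603), and EPHX1, microsomal epoxide hydrolase, one of 0.707% to 6.42% (adjusted p = 0.0799). ABCC3 and UGDH lay lower and EPHX1 higher in every rhSP-D sample, and with library totals alone UGDH and ABCC3 were lower (log2 changes -0.10 and -0.086, adjusted p = 0.00136 and 0.000587). UGDH also passed with upper-quartile factors and with a filter of 1 CPM in 3 samples (adjusted p = 0.0436 and 0.0464), and ABCC3 with upper-quartile factors and limma-voom (adjusted p = 0.0498 and 0.0496). EPHX1 passed without vehicle replicate 2 (log2 change 0.063, adjusted p = 0.046). UGT1A6, a glucuronosyltransferase, was at 5.36, 4.80 and 6.12 CPM in the vehicle samples against 3.05, 3.87 and 5.22 CPM after rhSP-D, with overlapping groups and a wide interval of -42.4% to -5.52% (adjusted p = 0.0878). It passed as lower without rhSP-D replicate 3 (log2 change -0.67, adjusted p = 0.016). Its last exons are shared with the other UGT1A genes, so its single count is uncertain, and 20.5% of its exon bases overlap exons of the opposite strand.

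Both superoxide dismutases rose. Of all tested genes 36.1% were higher at the level of SOD1 (100 to 1000 CPM) and 8.74% at that of SOD2 (10 to 100 CPM). SOD1 (ENSG00000142168, chromosome 21, 31659622 to 31668931), the copper-zinc enzyme of the cytosol, was at 146, 156 and 152 CPM in the vehicle samples against 166, 170.5 and 173 CPM after rhSP-D, a rise of 11.9% (log2 change 0.16 ± 0.028 SE, adjusted p = 1.16e-04). SOD2 (ENSG00000112096, chromosome 6, 159669057 to 159745186), the manganese enzyme of mitochondria and also a target of NF-kB, was at 82.5, 81.0 and 82.9 CPM in the vehicle samples against 90.1, 91.7 and 99.3 CPM after rhSP-D and rose by 13.9% (log2 change 0.19 ± 0.037 SE, adjusted p = 6.20e-04). In each gene the lowest rhSP-D sample lay above the highest vehicle sample.

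**Figure D4:**
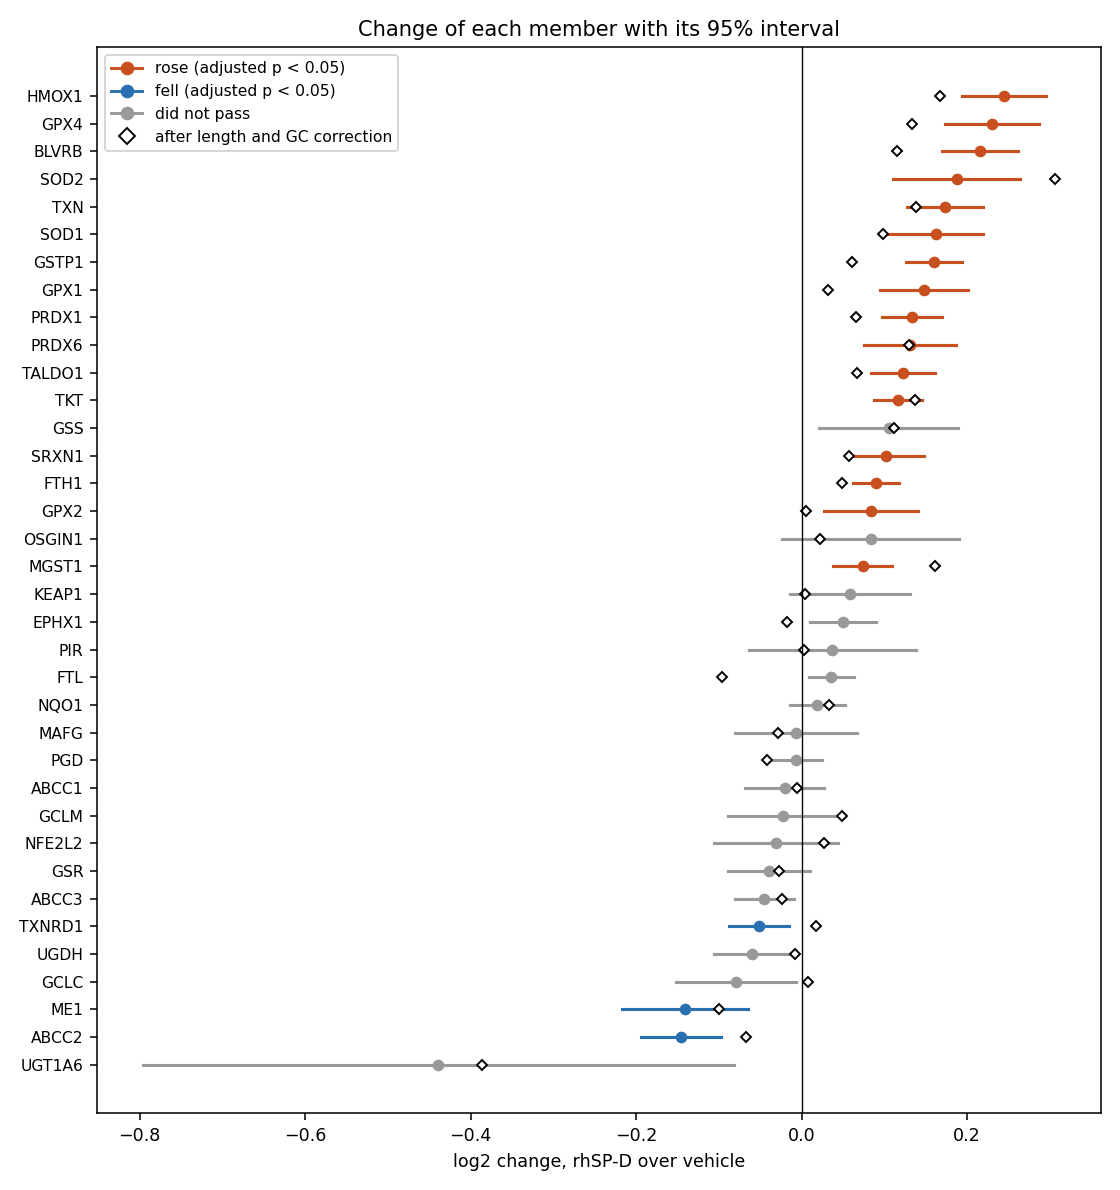
Log2 change of each member (horizontal axis) with its 95% interval, coloured by whether it rose, fell or did not pass, and its value after correction for gene length and GC content (open diamonds). The corrected values moved toward 0 for HMOX1, GPX4 and GSTP1, away from it for SOD2 and MGST1, and below it for FTL.

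At the median, the genes that rose were shorter than those that fell. Merged exons of the 16 that rose had a median length of 2024 nt and those of the 3 that fell a median of 6708 nt, with 4045 nt for the other 17 and 4671 nt over all tested genes. The median GC content was 53.6%, 44.8% and 52.9%, and 48.9% over all tested genes. After each library was corrected for gene length and GC content, 13 members were higher and 1 lower, with a median of 0.029, while 11% of all genes changed, 8.19% higher and 2.77% lower. At 100 to 1000 CPM 10 of 22 members then changed, all higher, and 40% of all genes. The members were thus closer to all genes of that level than before the correction, when 68.2% changed against 50%. How many of all genes at that level were higher after the correction was not computed. The part of length and GC content in these changes was not tested further.

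**Figure D5:**
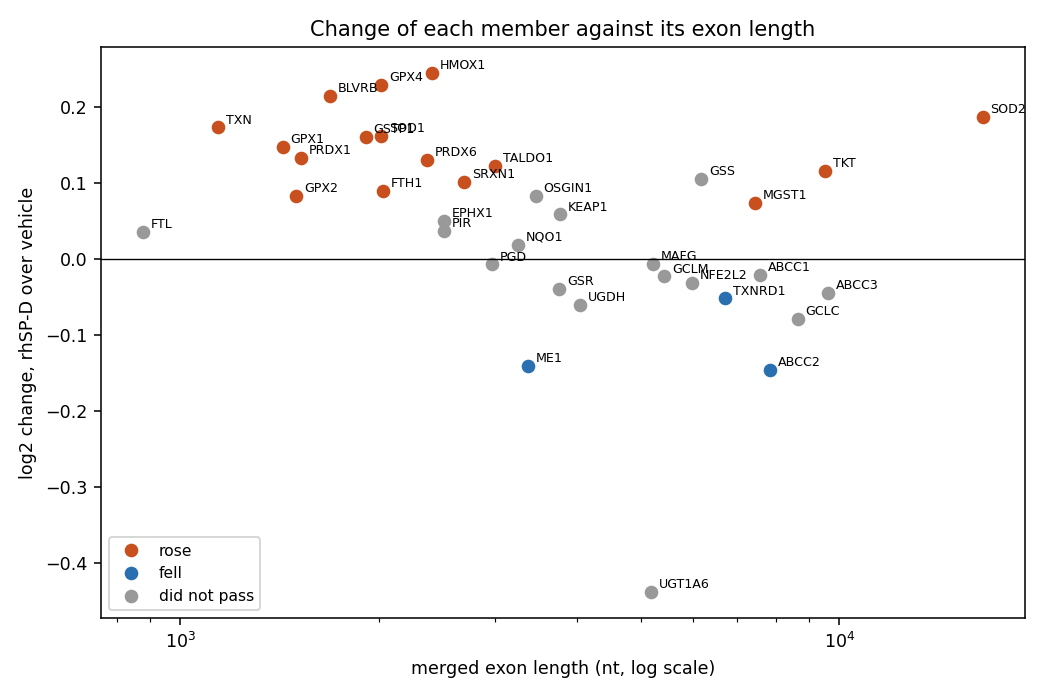
Log2 change of each member (vertical axis) against the length of its merged exons in nt (horizontal axis, log scale), coloured by whether it rose, fell or did not pass. Except for TKT, MGST1 and SOD2 the members that rose lie at 3005 nt (TALDO1) or less, and the shortest of the 3 that fell is ME1, at 3371 nt.

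Single members moved with that correction to different degrees. The calls of GPX1 and GPX2 ended, as given above, and so did those of SRXN1 (log2 change 0.057, adjusted p = 0.106), ME1 (-0.10, adjusted p = 0.0786) and ABCC2 (-0.067, adjusted p = 0.0656). SRXN1 and GPX2 also lost theirs with library totals alone (0.060 and 0.043, adjusted p = 0.0641 and 0.319). TXNRD1 turned to 0.018 (adjusted p = 0.609), and FTL, at 0.036 before, passed as lower. The values of GPX4 (0.13), BLVRB (0.12), GSTP1 (0.060), PRDX1 (0.066), SOD1 (0.10), TALDO1 (0.067) and FTH1 (0.049) shrank by over 1.5 times and still passed. SOD2 (0.31) and MGST1 (0.16) grew by more than 1.5 times. Length in the correction was that of merged exons, 16493 nt for SOD2 and 7440 nt for MGST1. Which of their transcripts were present was not examined. Library totals alone lowered FTH1 to 0.049, TKT to 0.076 and TALDO1 to 0.082, and these still passed. The genes called under all 18 alternatives were HMOX1, GPX4, BLVRB, SOD2, TXN, SOD1, GSTP1, PRDX1, PRDX6, TALDO1 and TKT, 11 of 19.

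In absolute level the module stood near the top of the transcriptome, with 23 of 36 genes above the 95th percentile of tested genes in CPM per kilobase of exon. After ferritin the highest were GSTP1, PGD, NQO1 and PRDX1, at 457 ± 4.31, 454 ± 4.22, 436 ± 8.01 and 393 ± 2.73 CPM per kilobase in vehicle (SD, n = 3). GSTP1 and PGD differed by less than the sum of their SDs. The lowest was UGT1A6, at 1.05 ± 0.128. SOD2, at 4.98 ± 0.0630, was divided by merged exons of 16493 nt, the longest of the 36 genes, which lowers a level per kilobase.

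Other genes of the pathway, in lists also drawn up with earlier results known, were read from the same fit, and their counts are set beside the share of all tested genes that changed (15.9%) and the share at the same level (17.7% at 10 to 100 CPM, 50% at 100 to 1000 CPM, 75.3% above). Of 14 tested regulators and partners of KEAP1 and NRF2 2 fell and none rose, or 14.3%, below the share of all tested genes, and 10 of the 14, with both calls, were at 10 to 100 CPM. The 2 that fell were the coactivators EP300 and CREBBP, which acetylate NRF2 and histones, down by 17.5% and 13.4% (adjusted p = 1.74e-05 and 2.05e-04). Of 27 other NRF2 targets 6 rose and 4 fell (37.0%). At 100 to 1000 CPM 5 of 8 changed, above 1000 CPM 2 of 6 and at 10 to 100 CPM 3 of 10, the last all lower. Among the 3 with the smallest p, the aldo-keto reductases AKR1B1 and AKR1C1 rose by 19.2% and 14.1%, and SLC7A11, the cystine importer that feeds glutathione synthesis, fell by 14.3% (adjusted p = 1.61e-07). The AKR1C genes are near copies of each other, so their single counts are uncertain. With library totals alone the 27 split into 2 higher and 7 lower, the other glutathione enzymes into 4 and 1, and the other thioredoxin and peroxide genes into 2 and 2.

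SLC7A11 went from 228 ± 4.61 to 195 ± 3.82 CPM (SD, n = 3), while SLC3A2, the heavy chain it pairs with, rose by 5.25% (adjusted p = 9.54e-04), a call lost with library totals alone (log2 change 0.033, adjusted p = 0.13). SLC3A2 is 1 of 7 genes that rose among 26 tested in the list of other glutathione enzymes, in which 1 fell (30.8% changed), with 5 of 15 changed at 10 to 100 CPM and 2 of 4 at 100 to 1000 CPM. GGT1, which cleaves glutathione outside the cell, and HAGH, a hydrolase of the glyoxalase system, rose by 11.3% and 19.0%. Of 17 other thioredoxin, peroxiredoxin and peroxide genes 3 rose, PRDX5 by 15.4%, PRDX4 by 11.0% and MSRB1 by 12.6%, and 2 fell, the sestrins SESN3 by 20.9% and SESN2 by 10.1%. These are 29.4% of the list, with 3 of 11 changed at 10 to 100 CPM and 2 of 4 at 100 to 1000 CPM. The length and GC correction took the log2 change of PRDX5 from 0.21 to 0.060, of PRDX4 from 0.15 to 0.10 and of SLC7A11 from -0.22 to -0.12, and the call of MSRB1 ended (0.084, adjusted p = 0.304). MSRB1 also did not pass without vehicle replicate 3 (log2 change 0.13, adjusted p = 0.144), rhSP-D replicate 1 (log2 change 0.13, adjusted p = 0.127) or rhSP-D replicate 3 (log2 change 0.15, adjusted p = 0.0668). SESN2 lost its call when vehicle replicate 1 or 3 was left out (adjusted p = 0.0914 and 0.141), and likewise rhSP-D replicate 1 or 2 (0.137 and 0.0824). Of 13 other NADPH genes 1 rose, PGLS, the lactonase of the oxidative pentose phosphate arm, by 15.03% (adjusted p = 8.60e-04, log2 change 0.20 and 0.13 after the correction), and none fell, so that 7.69% changed, below the share of all tested genes.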

How the data were processed

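Poly(A) RNA of 6 A549 samples was sequenced. The submitters' processing notes list cutadapt, STAR 2.7.0a, featureCounts 2.0.0 and the build GRCh38 (hg38). Annotation release, strand setting and treatment of multiply mapping reads: not given in the sources used here. Deposited values are raw counts by gene, which add up to a different total in each library. Members and lists were chosen with earlier results of these data known. The 3 rhSP-D and 3 vehicle libraries were tested with edgeR 4.0.16 under R 4.3.3 (filterByExpr with minimum count 10 and total 15, TMM, robust quasi-likelihood test, 2-sided, Benjamini-Hochberg adjustment over 15848 genes), and the procedure was tested on simulated data. The biological coefficient of variation was 2.51%. Coordinates, exon lengths and GC content come from GENCODE 29 (GRCh38), which need not be the authors' annotation, and promoter windows from RefSeq (GRCh38.p14), of which 23 of 27 matched a GENCODE transcript of the gene in the same orientation. The correction took out, library by library, spline trends (5 degrees of freedom) in GC content and log2 length, for the 96.8% of tested genes that have both. Values of each sample are printed for NFE2L2, KEAP1, NQO1, the members that passed and, outside that rule and chosen after their values were seen, FTL and UGT1A6, and from each other list the text names at most the 3 called genes of smallest p, or all where 5 or fewer were called. Alternatives were other scalings and filters, DESeq2 1.42.0, limma 3.58.1 (voom), a stricter threshold, a replicate block, and leaving out each library.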

Additional observations from a re-analysis of the deposited data

How the results depend on the processing

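With 1 library left out, 15 to 19 members were higher and 1 to 3 lower, with a median log2 change of 0.0435 to 0.0802, and over all genes 1042 to 1336 were higher and 636 to 892 lower. Members lower fell to 1 without vehicle replicate 3 or rhSP-D replicate 1, which also took the genes lower from 1051 to 643 and 636. Library totals alone gave 8 members lower with a median of 0.0254, and 856 genes higher and 1961 lower. Upper-quartile factors gave 5 members lower. The length and GC correction gave 1 member lower with a median of 0.0292 and 425 genes lower, and with the replicate block added 1 member lower, a median of 0.0325 and 355 genes lower. Under that correction TXNRD1 turned to 0.0180 (0.0180 with the block) and FTL to -0.0964 (-0.0965 with the block), and FTH1 did not pass with the block added (0.0484, adjusted p = 0.0598). DESeq2 called 518 genes lower, and an adjusted p under 0.01 left 939 genes higher and 526 lower. The cause was not tested where the setting itself (fewer samples, a stricter threshold) does not show it. The replicate block alone ended the call of TXNRD1 (adjusted p = 0.0839) and gave 16 members higher and 2 lower, and 1374 and 945 genes. Same-numbered samples did not deviate together (correlations -0.0401, -0.0253 and 0.002, and no sample correlated best with its own number), so the numbers were not taken as pairs. Depth limits UGT1A6, at about 5 CPM, where 3 counts equal 0.117 to 0.26 CPM, a floor that covers counting error only.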

Other observations

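Selenoproteins contain selenocysteine, and 4 members belong to them: GPX1, GPX2 and GPX4, which rose, and TXNRD1, which fell. After the length and GC correction GPX4 alone of these 4 passed, with GPX1 at 0.032 (adjusted p = 0.576), GPX2 at 0.006 (adjusted p = 0.941) and TXNRD1 turned to 0.018 (adjusted p = 0.609). Of 18 other selenoproteins and genes of their synthesis 5 rose and none fell (27.8% changed). All 5 were among the 14 genes of the list at 10 to 100 CPM, a level at which 8.74% of all tested genes were higher and 17.7% changed. SELENOM rose by 26.7% (log2 change 0.34 ± 0.068 SE, adjusted p = 5.90e-04), SELENOW by 13.6% and SELENOH by 12.4%. SELENOH lost its call when vehicle replicate 3 or rhSP-D replicate 1 was left out (adjusted p = 0.0724 and 0.092). EEFSEC, the elongation factor that delivers selenocysteine, rose by 15.6% and SELENOS by 7.02%, with adjusted p = 0.0419 and 0.0481. The call of EEFSEC was lost under 10 of the 18 alternatives and that of SELENOS under 11, among them library totals alone, which left 3 of the 18 genes higher.

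Of 19 other iron and heme genes 2 rose and 2 fell (21.1% changed), 2 of 14 at 10 to 100 CPM and 2 of 5 at 100 to 1000 CPM, against 17.7% and 50% of all tested genes at those levels. The iron chaperones PCBP1 and PCBP2 rose by 6.45% and 6.55%. IREB2, an iron sensor that represses ferritin translation, fell by 8.20%, and FECH, which completes heme by inserting its iron, fell by 10.3%. After the length and GC correction PCBP1 was at 0.008 (adjusted p = 0.89), IREB2 at -0.013 (adjusted p = 0.884) and FECH at -0.11 (adjusted p = 0.0983). PCBP1 and IREB2 also lost their calls when vehicle replicate 3 was left out (adjusted p = 0.0628 and 0.133), PCBP1 with library totals alone (adjusted p = 0.111) and FECH without rhSP-D replicate 1 (adjusted p = 0.0712). Of 11 tested genes of other glucuronosyltransferases and exporters 1 fell, the exporter ABCC4, by 15.2% (adjusted p = 2.32e-04), and none rose, so that 9.09% changed against 15.9% of all tested genes. The log2 change of ABCC4 was -0.24, and -0.15 after the length and GC correction.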
